A study of Danio rerio with 21 samples.

Results

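Except for *agr1* (ENSDARG00000060682), the 9 genes described here belong to the surface and cytoskeleton of epithelial cells. They include 3 keratins, *krt5* (ENSDARG00000058371), *krt17* (ENSDARG00000094041) and *krt97* (ENSDARG00000000212), and the cell-surface adhesion gene *epcam* (ENSDARG00000040534). The others are the junction genes *cdh1* (ENSDARG00000102750) and *cldni* (ENSDARG00000054616) and the plakins *evpla* (ENSDARG00000019808) and *ppl* (ENSDARG00000101043). All 9 were chosen with earlier results of these data known, are followed here by their Ensembl identifiers, and make up 9 of the 31952 genes counted. The RNA came from a pull-down meant for nuclei of macrophages of the adult zebrafish heart, by a biotin tag on the nuclear envelope. The line carried a TgBAC(mpeg1:BirA-Citrine) transgene and a second one, βactin:Avi-Cerulean-Rangap. In it every cell makes the Avi-tagged nuclear envelope protein, and the biotin ligase BirA is driven by the promoter of the macrophage gene *mpeg1*. The purity of the nuclei thus rests in part on where that promoter is active. All fish carried both transgenes, each library came from 1 heart, and 21 libraries in 8 groups were used. At 1 day post injury (dpi) there were 3 libraries after resection of the ventricle, 2 after cryoinjury and 3 after sham surgery. At 5 dpi each of the 3 procedures had 2 libraries, and at 14 dpi there were 3 libraries after cryoinjury and 4 after sham surgery.

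Keratins build the intermediate filaments of epithelial cells from pairs of a type I and a type II protein. At the cell border the filaments are tied to desmosomes, while cadherins hold adherens junctions together and claudins seal the tight junctions. Most of these genes are best known from epidermis and other covering epithelia, although *cdh1* is also known from macrophages, in the alternatively activated state and in the granulomas of infected zebrafish.

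Total counts ranged from 10577395 to 61141100 per library. At 1 dpi the libraries were not alike in breadth: the resection libraries held 20122 to 21742 genes with at least 1 count, the cryoinjury libraries 14322 and 17352, and the sham libraries 12608 to 14075. The 25 gene identifiers of a macrophage list summed to 590 to 812 counts per 1000000 counts (CPM) after resection, 772 and 822 CPM after cryoinjury and 126 to 533 CPM after sham surgery at 1 dpi. The 15 identifiers of a cardiomyocyte list summed to 30461 to 42902, 65844 to 94713 and 85527 to 198248 CPM in the same groups, so that transcripts of heart muscle were present in every library of the macrophage pull-down. The part that breadth and heart muscle RNA had in the results was not tested. In bulk samples, fewer cells of a type and less RNA per cell cannot be told apart.

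All levels are CPM after trimmed mean of M-values (TMM) scaling over the 21 libraries. Summed over the 9 genes, the level was 1525 to 2705 CPM after resection at 1 dpi (mean 2260, n = 3, or 3963 CPM without TMM scaling), 2454 and 1229 CPM after cryoinjury at 1 dpi, and 0.231 to 1.88 CPM after sham surgery at 1 dpi (n = 3). At 5 dpi the sums were 7.88 and 7.35 CPM after resection, 32.8 and 26.2 CPM after cryoinjury, and 6.54 and 0.919 CPM in shams. At 14 dpi they were 3.68 to 51.8 CPM after cryoinjury (n = 3) and 11.3 to 99.8 CPM in shams (n = 4). The lowest of the 5 injured 1 dpi libraries, at 1229 CPM, thus stood above the highest of the other 16, at 99.8 CPM. The plot of every library shows the same step in the single genes, with the exceptions that *agr1* was read only after resection at 1 dpi and in 1 sham library at 14 dpi, that *epcam* and *ppl* reached 25.7 and 21.3 CPM in single cryoinjury libraries at 5 dpi, and that *ppl* was 16.1 CPM in 1 sham at 14 dpi and only 6.79 CPM in 1 cryoinjury library at 1 dpi.

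**Figure D1:**
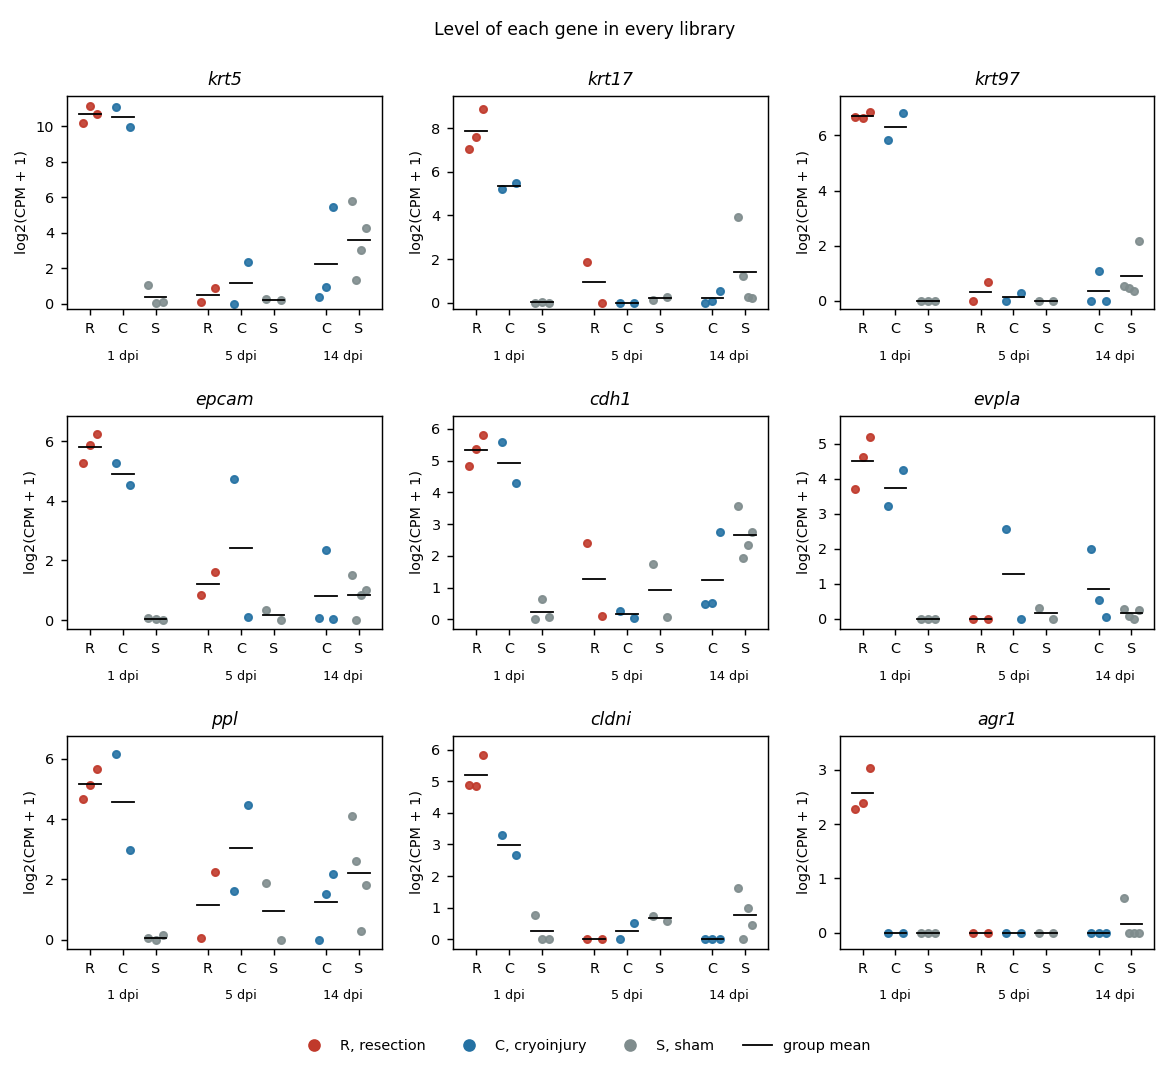
Level of each of the 9 genes, as log2(CPM + 1) after TMM scaling, in the 21 libraries. Points are libraries, grouped by day and by resection (R), cryoinjury (C) and sham surgery (S), and lines are group means. At 1 dpi the R and C libraries of *krt5* lie at 1002 to 2224 CPM and the S libraries at 0.0173 to 1.098 CPM.

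Resection against sham surgery at 1 dpi sets RNA of the pull-down a day after the loss of a piece of ventricle beside that after sham surgery. All 9 genes were higher after resection (edgeR quasi-likelihood test, Benjamini-Hochberg adjusted p under 0.05 over all genes tested), where 11.3% of the 15764 genes tested were called higher. The groups did not overlap for all 9 genes, beside 26.7% of all genes tested. Of the 9, *krt17*, *krt97*, *epcam*, *evpla*, *ppl* and *agr1* were too low in every sham to pass the filter on counts there. They could be tested only if every resection library was high, so for them the filter fixed the lack of overlap. The median log2 fold change over the 9 genes was 11.37 as fitted, and 9.78 with the 3 genes that had no sham count set at their lower bound, beside 0.26 over all genes tested.

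Among the keratins, *krt5*, a type II keratin whose human counterpart marks the basal layer of the epidermis, had 1158, 2224 and 1682 CPM after resection, against 1.098, 0.0173 and 0.0578 CPM in shams. In reads, that is 33413 to 68285 counts after resection, against 28, 1 and 1 in shams, and the lowest resection library lay far above the highest sham. The fitted log2 fold change was 12.27 ± 1.55 (SE, adjusted p = 0.0316 by edgeR). *krt17*, a type I keratin that mammals switch on in wounded epidermis, had 134, 195 and 475 CPM after resection, against 0, 0.0173 and 0 CPM in shams. The 3 shams held 1 count of *krt17* in all, which gives a ratio of 27102 with a 95% counting interval of 4864 to 1070530 (adjusted p = 0.00703 by edgeR). *krt97*, a further zebrafish keratin, had 101, 98.7 and 113 CPM after resection and no count in any sham. Its 3 resection libraries were the most alike of the 9 genes' (104 ± 7.80 CPM, SD, n = 3), and the level was at least 911-fold higher than the limit that 3 counts per sham library set (adjusted p = 0.0132 by edgeR).

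The genes of cell contact followed. *epcam*, which encodes an adhesion molecule of the basolateral membrane of epithelia, had 37.2, 57.5 and 75.1 CPM after resection, against 0.0392, 0.0173 and 0 CPM in shams. The 2 sham counts of *epcam* give a ratio of 2859, with a 95% counting interval of 791 to 23617 (adjusted p = 0.0132 by edgeR). *cdh1*, which encodes E-cadherin, the cadherin of epithelial adherens junctions, had 27.3, 40.1 and 55.1 CPM after resection, against 0, 0.572 and 0.0578 CPM in shams (log2 fold change 7.65 ± 1.60 SE, adjusted p = 0.0316 by edgeR). *cldni*, a claudin and so a gene of the tight junction, had 28.2, 27.8 and 56.2 CPM after resection, against 0.706, 0 and 0 CPM in shams (7.48 ± 1.99 SE, adjusted p = 0.0406 by edgeR). The sham counts of both genes were uneven: *cdh1* had 33 of its 34 sham counts in sham 2, and *cldni* had all 18 in sham 1.

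Envoplakin and periplakin are plakins that, in mammals, tie keratin filaments to desmosomes and to the cornified envelope of the epidermis. *evpla*, the zebrafish envoplakin gene, had 12.03, 23.5 and 35.9 CPM after resection and no sham count, at least 208-fold above the limit (adjusted p = 0.0316 by edgeR). *ppl*, the periplakin gene, had 24.2, 34.3 and 48.9 CPM after resection, against 0.0392, 0 and 0.116 CPM in shams, or 3 sham counts. Its ratio was 1205, with a 95% counting interval of 412 to 5847 (adjusted p = 0.0316 by edgeR). *agr1* belongs to the anterior gradient family of disulfide isomerase-like proteins, whose mouse member Agr2 serves mucus-secreting goblet cells. It had 3.88, 4.23 and 7.19 CPM after resection, from 112 to 217 counts, and none in shams, at least 44.6-fold above the limit (adjusted p = 0.0316 by edgeR).

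These calls depended on the fit and on the number of libraries. With no filter beyond 1 count, and with all 21 libraries in 1 fit, 7 of the 9 were called, without *cldni* and *agr1*, beside 0.358% and 1.05% of all genes called higher. Without resection replicate 2 or 3 in turn only *krt17* was called, and without resection replicate 4 none of the 9 was; without sham 1 there were 4 calls (*krt5*, *krt17*, *krt97*, *epcam*), without sham 2 all but *cldni* and *agr1*, and without sham 3 only *krt17*, *krt97* and *epcam*. In those fits 0 to 56 of all genes were called higher, and every one of the 9 kept a positive fold change.

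**Figure D2:**
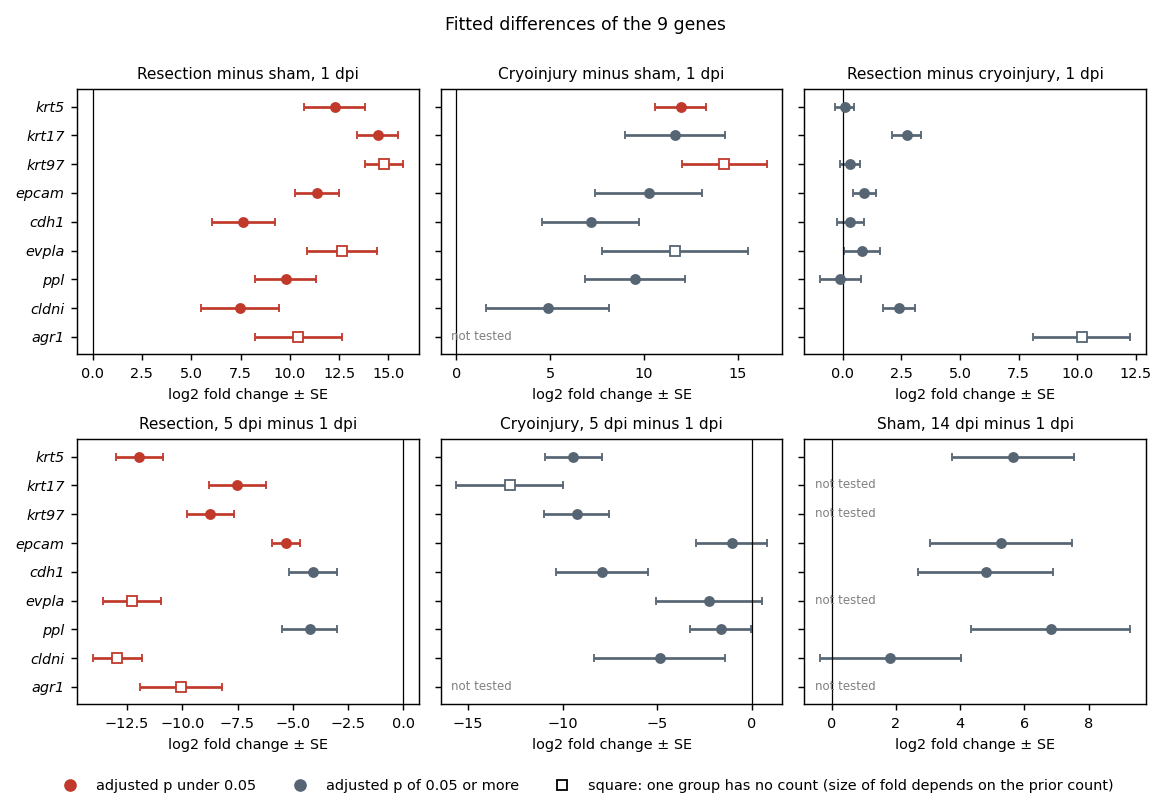
Fitted log2 fold changes of the 9 genes in 6 comparisons, with bars of 1 SE. Red marks an adjusted p under 0.05, and squares mark genes with no count in one of the groups, whose fitted size depends on the prior count and is no bound. All 9 are red in resection minus sham at 1 dpi, 2 of 8 in cryoinjury minus sham, and 7 of 9 in resection at 5 dpi minus 1 dpi.

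Cryoinjury, which freezes part of the ventricle and leaves the dead tissue in place, was compared with sham surgery in the same way. Of the 8 genes tested, *krt5* and *krt97* were called higher after cryoinjury, while 0.138% of the 13020 genes tested were called higher, or 18 genes. *krt5* had 2190 and 1002 CPM after cryoinjury, against the same 1.098, 0.0173 and 0.0578 CPM in shams. The log2 fold change was 11.96 ± 1.36 (SE), at an adjusted p of 0.000426 by edgeR. *krt97* had 55.7 and 111 CPM after cryoinjury and none in shams, at least 729-fold above the limit (adjusted p = 0.00965 by edgeR). Both calls held in all 10 alternative fits, in which the highest adjusted p was 0.0110 for *krt5* and 0.0418 for *krt97*.

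The other 6 genes tested missed the threshold. Both cryoinjury libraries lay above all 3 shams for each of the 8 genes tested, beside 14.6% of all genes tested. Of these, *krt17*, *krt97*, *epcam*, *evpla* and *ppl* were too low in every sham to pass the filter on counts there. They could be tested only if both cryoinjury libraries were high, so for them the filter fixed the lack of overlap. *krt17* had 36.3 and 44.7 CPM after cryoinjury (adjusted p = 0.148 by edgeR), *epcam* 37.3 and 22.3 CPM (0.382), *cdh1* 46.8 and 18.4 CPM (0.571) and *evpla* 8.42 and 18.2 CPM (0.571). *ppl* spread most between the hearts, with 70.6 and 6.79 CPM (0.382), and *cldni* had 8.92 and 5.37 CPM (0.928). By DESeq2's Wald test 7 of the 9 were called, all but *cldni* and *agr1*, beside 3.96% of all genes. *agr1* had no count in either cryoinjury library and was not tested. Resection and cryoinjury share the 3 sham libraries, so these 2 comparisons are not independent of each other.

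The injuries were then set against each other at 1 dpi. None of the 9 genes was called by edgeR (0.213% of the 17338 genes tested were called higher after resection); 3 of the 9 had an unadjusted p under 0.05, and DESeq2 called those 3, beside 19% of all genes. They were *krt17*, higher by 2.72 ± 0.61 log2 units (SE, adjusted p = 0.0705 by edgeR), *cldni* with 2.39 ± 0.68 (adjusted p = 0.0857), and *agr1*, which was at least 45.3-fold above the limit set by the cryoinjury libraries (adjusted p = 0.0673). For these 3 the resection libraries all lay above the cryoinjury libraries, beside 33.6% of all genes tested. Leaving out a cryoinjury library leaves 1 heart in that group, so no count of calls is given for it. With any resection library left out none passed. The difference was 0.07 ± 0.39 (SE) for *krt5*, 0.30 ± 0.41 for *krt97*, 0.32 ± 0.59 for *cdh1* and −0.10 ± 0.88 for *ppl*, while *epcam* (0.92 ± 0.51) and *evpla* (0.82 ± 0.76) had larger differences, with adjusted p of 0.259 and 0.504 by edgeR. The sign for *ppl* was not fixed: the difference was 2.34 without cryoinjury 2, 0.14 without resection 2 and 0.38 with a replicate block. Small differences of other genes turned sign as well. That of *krt5* was −0.38 and that of *cdh1* −0.20 without cryoinjury 3, and that of *krt97* −0.15 without cryoinjury 2.

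The size of the differences between the injuries depended on the scaling. The TMM factors were 1.72 to 1.78 for the resection libraries and 0.846 and 0.648 for the cryoinjury libraries. On CPM without TMM, *krt5* had 2061, 3825 and 2985 CPM after resection, against 1853 and 650 CPM after cryoinjury, a ratio of means of 2.36, where TMM gave 1.06. For *krt97* the ratio was 3.07 without TMM and 1.25 with it. The injuries did not overlap for 8 of the 9 genes without TMM, all but *ppl*, for 5 of 9 with DESeq2's size factors and for 3 of 9 with TMM. The share over all genes was 33.6% with TMM and was not computed on the other scales. The counts on those scales therefore cannot be read as particular to these genes. This comparison of scalings gene by gene was chosen after seeing the data.

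The make-up of the keratin reads was compared between the injuries. For each count of *krt17* there were 8.67, 11.4 and 3.54 counts of *krt5* in the resection libraries, against 60.4 and 22.4 in the cryoinjury libraries. The ratios do not overlap between the injuries. *krt17* itself did not overlap between them, and the share of other gene pairs without overlap was not computed. The gap therefore cannot be read as particular to these keratins. The difference between the ratios was not tested. Against *epcam*, the ratio of *krt5* was 31.2, 38.7 and 22.4 after resection and 58.7 and 45.0 after cryoinjury, a smaller gap. Against *krt97* the ratio of *krt5* was 11.5, 22.5 and 14.9 after resection and 39.3 and 9.03 after cryoinjury, so the injuries overlapped. The ratios of *krt5* to *ppl* and to *cdh1* overlapped as well. Counts of keratins are to be read with care, since near-identical copies within this gene family could share or lose reads.

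By 5 dpi few reads of these genes were left after resection. At 5 dpi against 1 dpi, 7 of 9 genes were lower after resection, where 1.03% of the 17978 genes tested were called lower, and all 9 had both 5 dpi libraries under all 3 of 1 dpi, beside 22.6% of all genes tested. *krt5* had 0.0707 and 0.882 CPM at 5 dpi, against 1158 to 2224 CPM at 1 dpi (log2 fold change −11.95 ± 1.06 SE, adjusted p = 0.00194 by edgeR). *krt17* had 2.65 and 0 CPM at 5 dpi (−7.50 ± 1.30 SE, adjusted p = 0.0261) and *krt97* 0 and 0.588 CPM (−8.74 ± 1.07 SE, adjusted p = 0.00754). At 5 dpi the 3 keratins had between 0 and 75 counts per heart. Of the contact genes, *epcam* had 0.778 and 2.06 CPM (−5.30 ± 0.64 SE, adjusted p = 0.00753 by edgeR). *evpla*, *cldni* and *agr1* had no count at 5 dpi, at least 146-fold, 229-fold and 31.2-fold lower (adjusted p = 0.00605, 0.0027 and 0.0375 by edgeR).

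The other two were *cdh1*, with 4.35 and 0.0735 CPM at 5 dpi (−4.10 ± 1.08 SE, adjusted p = 0.0948 by edgeR), and *ppl*, with 0.0354 and 3.75 CPM (−4.24 ± 1.24 SE, adjusted p = 0.119). Without resection replicate 2 of 1 dpi there were 5 calls, beside 0.448% of all genes called lower. Without replicate 3 or 4 there were 2 (*krt5* and *cldni*), beside 0.111% and 0.153%. Leaving out a 5 dpi library leaves 1 heart in that group, so no count is given for it. In a single fit of all 21 libraries, which pools the spread of every group, 0 of the 9 were called.

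After cryoinjury, none of the 8 genes tested was called lower at 5 dpi than at 1 dpi (0.0229% of the 13114 genes tested, or 3 genes); 4 of them had an unadjusted p under 0.05, and DESeq2 called those 4, beside 2.43% of all genes. *krt5* had 0 and 4.15 CPM at 5 dpi, against 2190 and 1002 CPM at 1 dpi (−9.44 ± 1.50 SE, adjusted p = 0.0648 by edgeR). *krt17* had no count at 5 dpi, at least 243-fold lower (adjusted p = 0.22), and *krt97* had 0 and 0.214 CPM (−9.26 ± 1.74 SE, adjusted p = 0.113). *cdh1* had 0.205 and 0.0428 CPM (−7.90 ± 2.43 SE, adjusted p = 0.385). The groups did not overlap for 6 of the 8 genes tested, beside 21.9% of all genes tested. For *krt17*, *krt97* and *cdh1*, too low at 5 dpi to pass the filter on counts there, the filter fixed this. The exceptions, *epcam* and *ppl*, were each high in a different heart: cryoinjury 1 had 25.7 CPM of *epcam* with 4.91 CPM of *evpla* and no count of *krt5*, and cryoinjury 4 had 21.3 CPM of *ppl* with 0.0856 CPM of *epcam*. Leaving out any 1 of the 4 libraries compared leaves 1 heart in a group, so no count of calls is given for it.

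Between the groups of 5 dpi no gene was called. The test reached 3 of the 9 genes for resection against sham surgery (0% of the 15423 genes tested were called higher), 2 for cryoinjury against sham surgery (0% of 14286 higher) and 3 for resection against cryoinjury (0% of 14709 lower); no tested member had an unadjusted p under 0.05 and DESeq2 called none. *epcam* had 0.778 and 2.06 CPM after resection, against 0.274 and 0 CPM in shams (3.31 ± 2.98 SE, adjusted p = 1.00 by edgeR). *ppl* had 2.05 and 21.3 CPM after cryoinjury, against 2.70 and 0 CPM in shams (3.10 ± 2.77 SE, adjusted p = 1.00). Standard errors of about 3 log2 units leave room for differences of several log2 units in either direction. For resection against cryoinjury, the log2 fold change of *epcam* was −3.06, which rests on the 25.7 CPM of cryoinjury 1. Without that library it was 4.03.

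A call at 1 dpi and none at 5 dpi do not show that the injury's effect differed, so the difference was tested as an interaction of injury and day. For resection, 0 of 9 genes passed (0% of the 19166 genes tested were lower), with an unadjusted p under 0.05 for 7 of them and 6 calls by DESeq2, beside 7.34% of all genes. *krt5* came closest, with a difference in log2 fold change of −10.65 ± 1.93 (SE, adjusted p = 0.172 by edgeR). It passed without sham 1 of 1 dpi. *krt97* and *agr1* gave no usable estimate, since the shams of both days held no count of them. For cryoinjury 0 of 8 passed (0.00598% of 16724 genes tested, or 1 gene, was lower), with an unadjusted p under 0.05 for *krt5*, *krt17* and *cdh1* and 2 calls by DESeq2, beside 1.51% of all genes, and *krt97* again gave no usable estimate. *krt5* differed by −8.36 ± 1.78 (SE, adjusted p = 0.201 by edgeR). It passed with any 1 sham of 1 dpi left out, giving 1 call each time, beside 0.0367% to 0.0491% of all genes called lower.

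At 14 dpi reads of these genes were found in shams and in cryoinjured hearts alike. None of the 6 genes tested was lower or higher after cryoinjury than after sham surgery (0% of the 15020 genes tested were lower), none had an unadjusted p under 0.05 and DESeq2 called none. *krt5* had 0.283, 0.946 and 42.1 CPM after cryoinjury, against 53.7, 1.54, 7.28 and 18.3 CPM in shams (−0.46 ± 1.33 SE, adjusted p = 0.999 by edgeR). The cryoinjury values span those of the shams except for the highest sham. *krt17* had 0, 0.0350 and 0.448 CPM after cryoinjury, against 14.0, 1.34, 0.212 and 0.139 CPM in shams (−4.52 ± 2.24 SE, unadjusted p = 0.0645, adjusted p = 0.873 by edgeR). *cdh1* had 0.405, 0.420 and 5.67 CPM after cryoinjury, against 10.8, 2.84, 4.10 and 5.79 CPM in shams (−1.42 ± 1.30 SE, adjusted p = 0.981). *cldni* had no count in the 3 cryoinjury hearts and 112 counts over 3 of the 4 shams, at least 8.18-fold lower, but was too low to be tested. The cryoinjury libraries are all labelled round 2 and 3 of the 4 shams round 1. What a round is the labels do not say. A fit with round as a covariate rests, for its injury term, on the 3 cryoinjury hearts against sham 3 of round 2 alone. It also called none of the 9, and gave *krt17* a difference of 0.22 in place of −4.52. The sign for *krt5* turned as well, to 0.64 without sham 1 of round 1.

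The heart with the highest summed level at 14 dpi was a sham. Sham 1 of round 1 held 2314 counts of *krt5*, 604 of *krt17* and all 24 counts of *agr1* found outside the resection libraries of 1 dpi. It was the only one of the 16 libraries other than the injured ones of 1 dpi in which all 9 genes had more than 3 counts. It gave 3.83 counts of *krt5* per count of *krt17*, close to the 3.54 of resection 4 at 1 dpi, while cryoinjury 3 of 14 dpi, with 1410 counts of *krt5*, gave 94.0.

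Over time within the shams, 5 of the 9 genes could be tested and none was called higher at 14 dpi than at 1 dpi (0% of the 13883 genes tested); 4 had an unadjusted p under 0.05, and DESeq2 called 6 of the 9, beside 11% of all genes. For 3 of the 5 tested, *krt5*, *cdh1* and *ppl*, the groups did not overlap, beside 11.7% of all genes tested. *krt5* differed by 5.64 ± 1.89 (SE, adjusted p = 0.197 by edgeR) and *cdh1* by 4.79 ± 2.11 (adjusted p = 0.301). *ppl*, with 16.1, 5.13, 0.212 and 2.55 CPM at 14 dpi, against 3 counts over the 3 shams at 1 dpi, had a ratio of 290 with a 95% counting interval of 98.9 to 1409 (adjusted p = 0.206). *krt97*, not tested, was at least 10.15-fold higher in shams at 14 dpi than the limit at 1 dpi. In cryoinjured hearts, 0 of 5 genes tested were called between 14 and 5 dpi (0% of the 15542 genes tested were higher), none had an unadjusted p under 0.05 and DESeq2 called none. *krt5* had 0.283, 0.946 and 42.1 CPM at 14 dpi, against 0 and 4.15 CPM at 5 dpi.

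The effect of cryoinjury itself differed between 14 and 1 dpi at the threshold for 1 of the 8 members tested, *krt5*. Of the 17907 genes tested 0.0447% were called lower, or 8 genes. All 8 members had a negative difference with an unadjusted p under 0.05 by edgeR, beside 2156 of all genes in either direction. At 14 dpi injury is largely tied to round, and a difference between rounds cannot be told apart from it. The log2 fold change over sham surgery at 14 dpi minus that at 1 dpi was −12.45 ± 2.25 (SE, adjusted p = 0.0335 by edgeR). *krt97* (adjusted p = 0.0571) and *krt17* (adjusted p = 0.0679) came next. The call was lost without sham 2 or sham 3 of 1 dpi, cryoinjury 2 of 1 dpi, sham 1 of round 1, or cryoinjury 1 or 2 of 14 dpi, with an adjusted p up to 0.088. *krt97* passed without cryoinjury 2 of 14 dpi, and *krt17* or *krt97* joined *krt5* in 3 other fits, so that leaving out 1 library gave 0 to 2 calls.

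In the order of group means, the injured 1 dpi groups led for every gene, with the exception of *agr1* after cryoinjury. Resection stood above cryoinjury for 8 genes and just below it for *ppl* (35.8 ± 12.4 against 38.7 ± 45.1 CPM, SD, n = 3 and 2), and the libraries of the 2 groups overlapped for 6 genes on this scale, all but *krt17*, *cldni* and *agr1*. Without TMM the mean of *ppl* was also higher after resection. Next came the 14 dpi shams for *krt5* (20.2 ± 23.4 CPM, SD, n = 4), *krt17*, *krt97*, *cdh1* and *cldni*, and the 5 dpi cryoinjury hearts for *epcam* (12.9 ± 18.1 CPM, SD, n = 2), *evpla* and *ppl*. For *agr1* the 14 dpi shams (0.139 CPM) followed resection directly and the other 6 groups had no count. The exceptions to a gap under the injured 1 dpi groups were *epcam*, with 25.7 CPM in 1 cryoinjured heart of 5 dpi, against 22.3 CPM in 1 of 1 dpi, and *ppl*, with 21.3 CPM in 1 cryoinjured heart of 5 dpi and 16.1 CPM in 1 sham of 14 dpi, against 6.79 CPM in 1 cryoinjured heart of 1 dpi. From the third place downwards, all 5 pairs of neighbouring groups overlapped for 8 genes and 4 of 5 for *krt17*, where the 5 dpi shams did not overlap with the group below them. No count at all was found in 1 group for *krt17*, in 2 groups each for *krt97*, *evpla* and *cldni*, and in 6 groups for *agr1*.

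The 9 genes moved together between groups far more than within them. They were chosen with earlier results of these data known, so their shared step between groups is no independent result. Across the 21 libraries, the median Pearson's r of log2(CPM + 1) over the 36 pairs of genes was 0.834 (range 0.623 to 0.958), and the median Spearman's rho was 0.650. The highest r was that of *krt17* with *cldni* and the lowest that of *ppl* with *agr1*. The pooled values rest on the 5 injured 1 dpi libraries, which form a cluster of their own. Without them the median r over 16 libraries was 0.300 (range −0.248 to 0.865) and the median rho 0.265. For deviations from the group means the median r was 0.205 (range −0.467 to 0.825). These are descriptions over libraries that share their depth, scaling and, in part, their day.

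Some pairs stayed close among the libraries with few reads. *krt5* and *cdh1* had r = 0.923 over the 7 libraries of 14 dpi, and *krt17* and *agr1* had r = 0.954, a value that comes from sham 1 of round 1, the only library with *agr1*. *epcam* and *evpla* had r = 0.635 over the 16 libraries, with cryoinjury 1 of 5 dpi highest for both. Within 5 dpi the median r over the pairs was −0.239 (6 libraries, 28 pairs with both genes read), so that no common level of the 9 genes ran through those hearts.

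**Figure D3:**
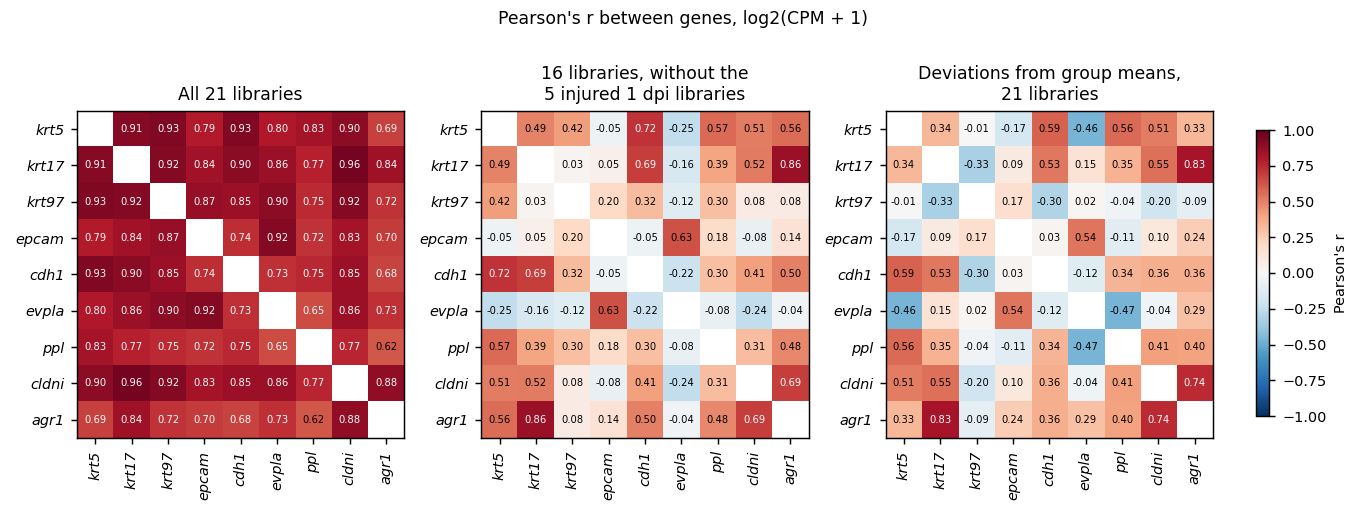
Pearson's r of log2(CPM + 1) between the 9 genes, for all 21 libraries, for the 16 libraries without the injured 1 dpi ones, and for deviations from group means. The median over the 36 pairs is 0.834, 0.300 and 0.205 in the 3 panels.

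Outside the set, 51 of 19211 genes (0.265%) had an r of at least 0.9 with the mean standardised profile of the 9 over the 21 libraries, and the median r of all genes was 0.0682. The closest was *cldnb*, a further claudin (r = 0.981), with group means of 85.5 CPM after resection, 54.3 CPM after cryoinjury and 0 CPM after sham surgery at 1 dpi. Then came *ms4a17a.4* (0.974), *anxa1b*, an annexin (0.965), *cd44a*, the gene of a hyaluronan receptor (0.964), *ms4a17a.12* (0.961), a gene without a symbol, *jac4* (0.959), *si:ch73-56d11.5* (0.958), *muc5.2*, a gel-forming mucin (0.955), and *si:dkey-7c18.24* (0.955). *muc5.2* averaged 229 CPM after resection, 129 CPM after cryoinjury and 0 CPM in shams at 1 dpi. It was also uneven between the cryoinjured hearts, with 254 and 4.17 CPM.

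Lists of related genes show which other epithelial transcripts stood beside the 9 at 1 dpi. In resection against sham surgery, 3 of 11 other keratins tested were higher, 3 of 11 desmosome genes, 7 of 16 tight junction genes, 1 of 7 adherens junction genes, 5 of 12 genes of attachment to the basal lamina, 10 of 15 epithelial transcription and splicing regulators, 5 of 6 epithelial proteases and their inhibitors, and 3 of 4 mucous cell genes, with none of these lists holding a gene called lower. The share over all genes was the 11.3% given above. In cryoinjury against sham surgery the counts were 1 of 11, 1 of 10, 0 of 13, 0 of 6, 1 of 13, 0 of 7, 0 of 2 and 2 of 2 in the same order, beside the 0.138% given above. For resection at 5 dpi against 1 dpi, 3 of 12, 3 of 11, 6 of 18, 1 of 7, 3 of 13, 5 of 16, 2 of 8 and 3 of 5 were lower, beside 1.03%.

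The other keratins were split. The 4 with the highest levels over the series did not pass at 1 dpi: *krt8*, a keratin of simple epithelia, averaged 759 CPM after resection, 1133 CPM after cryoinjury and 1374 CPM in shams (resection minus sham −0.67 ± 0.35 SE, adjusted p = 0.313 by edgeR). *krt94* averaged 624, 1068 and 855 CPM in the same groups, *krt15* 581, 1307 and 743 CPM, and *krt4* 696, 1715 and 951 CPM. The 3 that rose with the 9, named after their values were seen, were *krt91* (1441 CPM after resection, 835 CPM after cryoinjury and 73.3 CPM in shams), *krt1-19d* (70.1, 7.69 and 0 CPM) and *cyt1l* (0.467, 0.129 and 0 CPM). The 17 other keratins together summed to 3932 to 6261 CPM after resection and 3699 to 6929 CPM in shams, so that keratin reads as such were present in shams, while *krt5*, *krt17* and *krt97* were at 1.098 CPM or less there.

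The junction genes with the highest levels over the series mostly did not pass. Of the tight junction list, *TJP1* averaged 69.1 CPM after resection and 64.8 CPM in shams and *tjp1b* 102 CPM and 96.98 CPM, while the claudin *cldnb* was higher after resection (adjusted p = 0.0174 by edgeR). In the adherens list *CTNNB1*, the β-catenin gene, averaged 323 CPM after resection and 387 CPM in shams. The 1 gene of that list to pass was *nectin4a*, which encodes an adhesion molecule, with 8.37 CPM after resection and no sham count. Of the desmosome list, the plakophilin gene *pkp3a* was higher after both injuries (90.7 CPM after resection, 170 CPM after cryoinjury and 0.0578 CPM in shams; adjusted p = 0.0316 and 0.00677 by edgeR). At the basal lamina, *col7a1*, the gene of the anchoring fibril collagen of skin, was also higher after both (172, 148 and 0 CPM; adjusted p = 0.0132 and 0.00166 by edgeR). *TP63*, the master regulator of stratified epithelia, averaged 43.5, 153 and 14.2 CPM in the 3 groups and did not pass in either comparison (adjusted p = 0.360 and 0.571 by edgeR).

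Mucous and protease genes marked out further epithelial transcripts. The mucous cell list summed to 182 to 514 CPM after resection, 443 and 34.2 CPM after cryoinjury and 0.0173 to 0.549 CPM in shams, with *muc5.2* and *AGR2* higher after both injuries. The protease list summed to 26.9 to 30.9 CPM after resection, 24.4 and 7.02 CPM after cryoinjury and 0.0346 to 0.289 CPM in shams. The 7 identifiers of the ionocyte list summed to 674 to 738 CPM after resection, 1597 and 1767 CPM after cryoinjury and 1155 to 2818 CPM in shams, nearly all from *ATP1B1* (ENSDARG00000013144), a sodium pump subunit gene of many cell types. Of its defining genes, *foxi3b*, *ca15a* and *GCM2* averaged 0 CPM in all 3 groups and *foxi3a* averaged 0.155 CPM after resection and 0 CPM in the others. Yet 2 to 4 of the 7 identifiers had more than 3 counts after resection, against 1 in each cryoinjury and sham library, so low reads of this list were not evenly absent. In the plot of summed lists, the 9 genes, the mucous and the protease lists stand far above the shams at 1 dpi in every injured library, the other keratins overlap between the groups, and the cardiomyocyte list is lower after resection.

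Lists of other cell types were counted in the same way at 1 dpi. In resection against sham surgery, 3 of 23 macrophage genes tested were higher, 1 of 3 neutrophil genes, 1 of 5 erythrocyte genes and 2 of 6 skeletal muscle genes. Beside them 11.3% of all genes were called higher, a share close to that of the macrophage list. Called lower were 4 of 14 cardiomyocyte genes, 1 of 6 epicardium genes and 1 skeletal muscle gene, beside 2.37% of all genes. None of 5 endothelium, 8 fibroblast and 1 ionocyte genes tested was called. In cryoinjury against sham surgery the only calls in these 9 lists were 2 of 7 skeletal muscle genes, both higher, beside 0.138% of all genes. These 2 were *pvalb1*, a parvalbumin gene (16.4 CPM after resection, 121 CPM after cryoinjury and 0 CPM in shams), and *TNNT3* (ENSDARG00000068457), a troponin T gene (15.6, 724 and 0.440 CPM), named after their values were seen. *MPEG1* (ENSDARG00000055290), the gene whose promoter drives the tag, averaged 13.0 CPM after resection, 16.98 CPM after cryoinjury and 2.72 CPM in shams at 1 dpi. The skeletal muscle list had 6 to 7 of 8 genes above 3 counts after resection, 8 of 8 after cryoinjury and 2 to 3 of 8 in shams, and summed to 1728 to 2213, 3569 to 17893 and 6511 to 15128 CPM in the same groups. Whether the 9 transcripts came from macrophage nuclei or from other nuclei or RNA in the preparations was not tested.

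**Figure D4:**
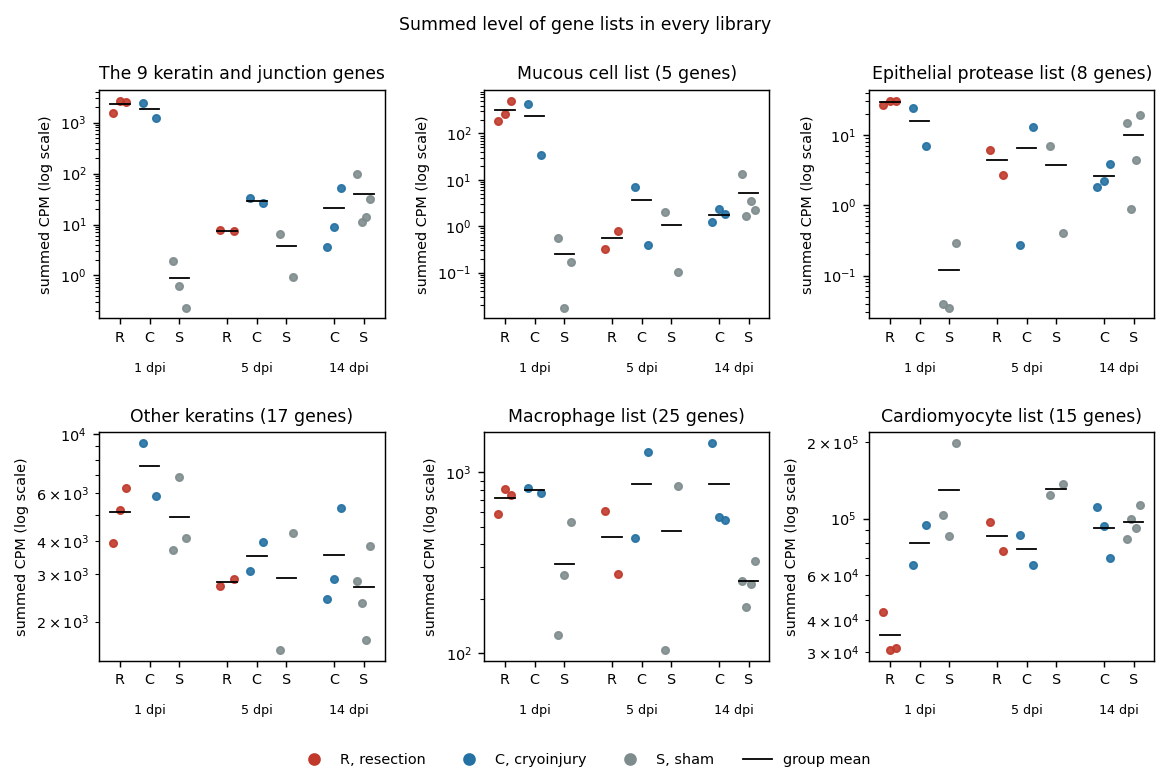
Summed CPM of 6 gene lists in every library, on log axes, by day and procedure (R, resection; C, cryoinjury; S, sham), with lines at group means. The 9 genes lie at 1229 CPM or more in the injured 1 dpi libraries and at 99.8 CPM or less in the other 16, while the other keratins lie at 3699 CPM or more in all 8 libraries of 1 dpi.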

How the data were processed

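Nuclear RNA of single hearts was amplified with SMART-seq v4 and sequenced as paired reads of 80 bases. The authors mapped the reads to danRer10 with STAR 2.4.2a and deposited raw counts per gene from featureCounts with standard parameters, which by default leave out reads with several matches and ignore strand, so that overlapping genes and near-identical copies can lose or share counts. The table has 31953 genes and 23 columns. One gene with missing values was left out, and 2 columns that match no sample given here were not used. Some libraries are labelled as merged, and 14 dpi libraries carry a round number. Symbols were matched for 26121 identifiers. No 2 libraries were identical, and the highest r between 2 of them was 0.954.

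Counts were tested in edgeR 4.0.16 (R 4.3.3, limma 3.58.1): quasi-likelihood test, TMM scaling, filterByExpr and only the 2 groups compared, with Benjamini-Hochberg adjusted p-values over all genes and calls at under 0.05. The study itself used DESeq2, which served as an alternative (version 1.42.0). Day by injury differences were tested as interactions. Each SE is the absolute log2 fold change divided by the square root of the test's F statistic, and so is derived from the test rather than fitted. Levels are CPM on 1 TMM scaling of all 21 libraries, which corrects for total counts of 10577395 to 61141100. Where a group had no count, the fold change is a lower bound at 3 counts per library, and with 1 to 3 counts a ratio of pooled counts with a 95% counting interval is given. Such bounds and intervals cover counting error only. Correlations used log2(CPM + 1). The scripts were checked on simulated counts with far smaller folds and 1 fixed spread between libraries, so the check does not cover changes as large and uneven as these.

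Other alternatives were DESeq2's size factors, no filter beyond 1 count, all 21 libraries in 1 fit, a replicate block, round as a covariate, and each library left out. Replicate numbers were not taken to pair the samples. All 9 genes are named, with at most 4 genes of a list, those of highest mean CPM, unless stated, and the 10 genes closest in profile. The members and lists were chosen with earlier results of these data known.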

Additional observations from a re-analysis of the deposited data

Results flagged for a closer look

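In the 4 shams of 14 dpi, 3 genes had 1 library far from the rest, of 10 values looked at. The rule flags about 1 in 20 by chance only where values are normally distributed. Levels this uneven are not, so the number of flags cannot be set against chance. *krt17* was 14.0 CPM in sham 1 of round 1, against at most 1.34 CPM in the other 3 shams. *agr1* was 0.557 CPM in that same sham and 0 in the others, and a gene read in only 1 of 4 libraries is always flagged. *krt97* was 3.52 CPM in sham 3 of round 2, against at most 0.441 CPM in the others. The effect of cryoinjury on *krt5* differed between days by a test of the difference itself, with a log2 fold change over shams at 14 dpi minus that at 1 dpi of −12.45 ± 2.25 (SE, adjusted p = 0.0335 by edgeR). *krt5* was at 0.283, 0.946 and 42.1 CPM in the cryoinjured hearts of 14 dpi, against 2190 and 1002 CPM in those of 1 dpi. In shams it was 1.54 to 53.7 CPM at 14 dpi, against 0.0173 to 1.098 CPM at 1 dpi, so the shams also entered the difference. The call was lost in several fits that left out 1 library, and DESeq2 gave no adjusted p for it.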

How the results depend on the processing

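Counts below are of the 9 genes called. DESeq2's Wald test called 7 in cryoinjury against sham surgery at 1 dpi, 3 in resection against cryoinjury at 1 dpi, 4 in cryoinjury at 5 against 1 dpi, and 6 in sham surgery at 14 against 1 dpi. The shares of all genes called in the same direction were 3.96%, 19%, 2.43% and 11%. Over all genes it called 3718 higher and 581 lower in resection against sham surgery at 1 dpi, beside 1780 and 374 by edgeR. The edgeR counts themselves were 88 and 137 with no filter beyond 1 count, 222 and 371 with all 21 libraries in 1 fit and 41 and 12 with the replicate block, so that more genes were lower than higher in 2 of these fits. DESeq2 called 565 higher and 375 lower in cryoinjury against sham surgery, beside 18 and 1. For the interactions it called 6 for resection and 2 for cryoinjury at 5 against 1 dpi, and 4 for cryoinjury at 14 against 1 dpi, where it gave no adjusted p for *krt5*. Of all genes, 7.34%, 1.51% and 3.4% were called lower in the same order. With no filter beyond 1 count there were 7 calls in resection against sham surgery at 1 dpi, beside 0.358% of all genes called higher. This setting gave 2 in resection against cryoinjury at 1 dpi, beside 1.16% higher, and 3 in cryoinjury at 5 against 1 dpi, beside 0.487% lower. The 3 interactions in the same order had 4, 1 and 4 calls, beside 0.379%, 0.0656% and 0.576% of all genes called lower. With all 21 libraries in 1 fit there were 7 in resection and 4 in cryoinjury against sham surgery at 1 dpi, 1 in sham surgery at 14 against 1 dpi, and 0 in resection at 5 against 1 dpi. Beside these, 1.05%, 0.43% and 0.317% of all genes were called higher and 0% lower in the same order. DESeq2's size factors in edgeR gave 1 in cryoinjury at 5 against 1 dpi, beside 0.0381% of all genes called lower. These factors set the median log2 fold change of all genes in resection against sham surgery at 1 dpi to 0.14, against 0.26 with TMM. The cause of these differences was not tested.

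Samples with the same replicate number did not deviate together (r of −0.0629 to 0.02997). With so few samples per group, deviations from the mean mirror each other, so this check has little power to show pairing. The numbers were taken only to name samples. With the replicate block there were 6 calls in resection against sham surgery and 2 in cryoinjury against sham surgery at 1 dpi, 1 in resection against cryoinjury at 1 dpi, and 0 in both other fits tried. Beside the 6, 2 and 1 calls, 0.26%, 0.253% and 0.231% of all genes were called higher.

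The fits counted here left out 1 library and kept at least 2 in each group. Resection against sham surgery at 1 dpi then had 0 to 7 calls, beside 0% to 0.325% of all genes called higher. Cryoinjury against sham surgery at 1 dpi had 2, beside 0.0961% to 0.151%, and resection against cryoinjury 0, beside 0%. Resection at 5 against 1 dpi had 2 to 5, beside 0.111% to 0.448% called lower. The interactions at 5 dpi had 0 to 1 for resection, beside 0% to 0.00527% lower, and 1 for cryoinjury, beside 0.0367% to 0.0491%. The interaction for cryoinjury at 14 dpi had 0 to 2, beside 0.0169% to 0.101% lower. In the other fits a lone library left in a group is taken to vary like the others.

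Without TMM, the summed level of the 9 genes was 3963 CPM after resection at 1 dpi, 8.76 CPM after resection at 5 dpi and 34.6 CPM after cryoinjury at 5 dpi. The median r between the genes was 0.205 for deviations from group means, and, in alternatives chosen after seeing the data, 0.300 without the 5 injured 1 dpi libraries and 0.736 without the 2 libraries farthest from the median. No called fold change of the 9 genes changed sign in any of 197 refits. Of 781 refits of uncalled ones 27 did, among them *ppl* in resection against cryoinjury at 1 dpi without cryoinjury 2. With 2 or 3 hearts in most groups and 0 to 34 counts per gene over the 3 shams of 1 dpi, the size of the folds at 1 dpi is poorly fixed.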
